A study of Mus musculus with 3 samples.

Results

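Gene expression in the kidney of mice with an immune nephritis was set against that in untreated kidney, gene by gene. The comparison took the array of kidney labelled NTS minus the array of kidney labelled non-treated control. Its members were the genes read by probe sets with exactly 1 gene symbol, averaged per gene and kept where the brighter of the 2 values was no lower than its array's median over every probe set. This left 11778 of 19938 measured genes. At the edge of that filter, Dtwd2 (control 7.11, NTS 6.96) and Lyve1 (7.11 and 6.48) lay just inside, and Lrrc46 (7.11 and 6.98) and Efcc1 (7.11 and 7.09) just outside.

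The mice were females of strain CBL/6, 8 to 10 weeks old. The control mice were non-treated, and no group given control serum is part of the comparison. The NTS mice received a single injection of sheep nephrotoxic serum at 13.5 ug per g of body weight, and kidneys were taken on day 7. The remaining array of the series, of serum-injected mice that also got prostaglandin E2 (PGE2) at 5 ug per g daily from day 2, is quoted beside some genes. Each group had 1 array, and the labels do not say how many animals it held, so no value carries a replicate error and no difference was tested. As a check of the tissue label, 16 of 16 genes of the early proximal tubule and 30 of 31 of the podocyte were bright enough for the filter.

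Nephrotoxic serum holds antibodies against the glomerulus, the capillary tuft that filters blood. The antibodies bind there and bring on a glomerulonephritis, and damage then extends to the tubule downstream. The tubule reclaims most of the filtrate: its proximal part takes up glucose, phosphate, amino acids and filtered protein and secretes organic anions, and the later segments adjust salt, water and acid. Injured tubule cells are known to lose these transport functions, to switch on injury genes such as Havcr1 (Kim-1), and to divide as they repair the epithelium. In whole kidney RNA, fewer cells of a type and less RNA per cell cannot be told apart.

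Among the 11778 genes, 318 (2.7%) had an NTS value above control by 2-fold or more and 638 (5.42%) below it by as much, 8.12% in either direction. Differences of 4-fold or more numbered 60 higher and 127 lower, and those of 8-fold or more 12 and 25. The median difference was 0 on the log2 scale and the 5th and 95th percentiles were -1.04 and 0.74. Differences are log2 differences, in which 1 is 2-fold, and levels are log2 values. Levels in a row are in the order control, NTS and NTS/PGE2, or control and NTS where a pair is given. As a scale of technical error, 499 genes had 2 bright probe sets, and the SD of a single probe set's difference, taken from the gap between them, was 0.22. All 32 genes that were 2-fold different and had several bright probe sets differed in the same direction in each of them. They were picked by the mean of those same probe sets, so a split in direction was unlikely from the start. These figures leave out the spread between animals and any error that probe sets on the same array share.

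Counts in gene groups are given over all measured members, bright or not. The share of all 19938 measured genes to set them against was 1.78% for higher by 2-fold or more, 3.37% for lower by 2-fold or more and 5.15% for either, and the median was 0. The arrays had been made equal in overall distribution, and cytosolic ribosomal protein genes had a median of 0.43 on that scale. Centred on those genes instead, 142 genes were higher by 2-fold or more and 1447 lower by 2-fold or more, and any group whose median lies between 0 and 0.43 takes a negative sign. Genes of fat were high on the control array and low on both serum arrays, and their values are given beside the vessel and matrix groups.

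**Figure D1:**
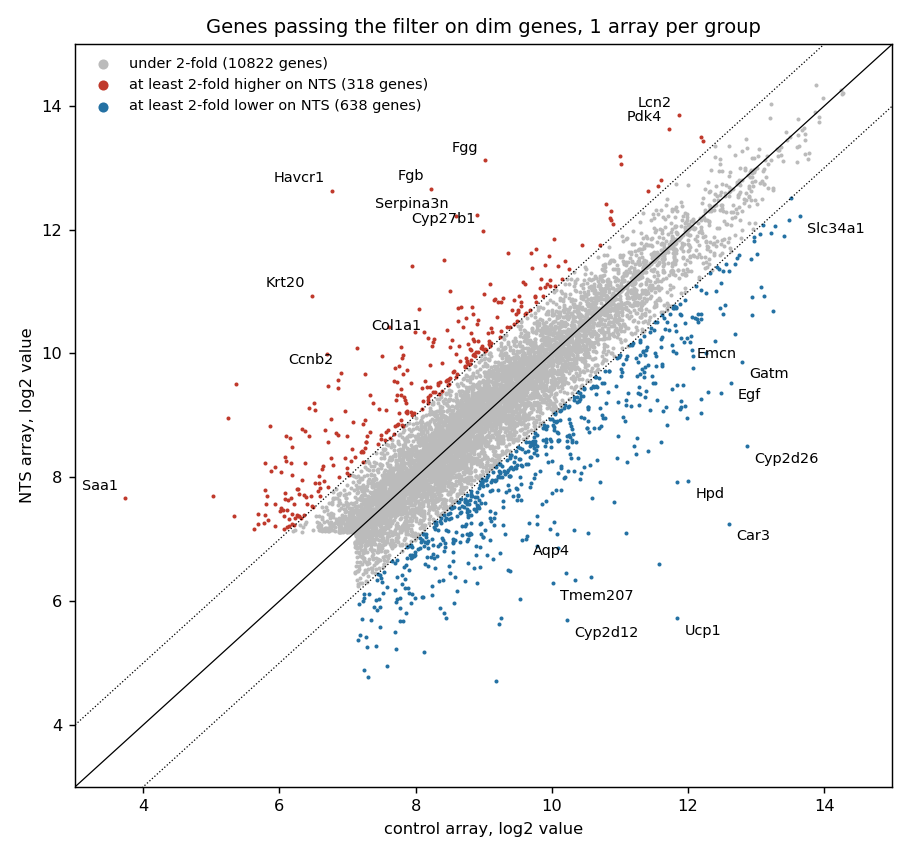
Log2 value on the NTS array (vertical) against the control array (horizontal) for the 11778 genes passing the filter. Red points are the 318 genes higher by 2-fold or more on NTS, blue points the 638 lower by 2-fold or more, the dotted lines mark 2-fold, and Havcr1 (6.77 and 12.63) and Ucp1 (11.84 and 5.72) lie farthest from the diagonal.

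The largest positive difference was in Havcr1, a phosphatidylserine receptor that lets injured tubule cells engulf debris. It read 6.77, 12.63 and 7.50, 58.2-fold apart between the first pair. The 20 largest positive differences included injury markers, plasma proteins of the acute phase, mitotic genes and cytochromes. Of 14 measured tubular injury genes, 13 of them bright, 7 were higher by 2-fold or more and 0 lower, and the median was 1.32. Besides the markers with the largest differences they held Clu, the chaperone clusterin, at 11.02 and 13.07, and Lgals3, a galactose-binding lectin, at 10.03 and 11.85. Hbegf, a growth factor for epithelium, read 8.19 and 9.02. The group was chosen as a list of known injury genes with earlier results of these arrays in view.

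The simple epithelial keratins differed unevenly. Krt20 read 6.48 and 10.93, and Krt8 11.40 and 12.62. Krt18, the usual partner of Krt8, read 9.88, 10.74 and 8.68, with control and NTS less than 2-fold apart. Krt19 read 8.77, 8.87 and 6.56. Both were thus lowest on the NTS/PGE2 array, and the part of urothelium in their values was not tested. Vim, the intermediate filament gene of mesenchyme and of dedifferentiated tubule, read 11.33 and 12.26. Of 30 genes for actin and tubulin structures, 5 were higher by 2-fold or more and 0 lower, and the median was 0.41, which becomes -0.02 with 3 genes higher when centred on ribosomal protein genes. The 5 were Tmsb10, which binds actin monomers, at 2.08, and the tubulin genes Tubb2a at 1.90, Tubb2b at 1.62, Tuba1a at 1.38 and Tubb6 at 1.13. Among 19 S100 and annexin genes, of calcium-binding proteins, 4 were higher by 2-fold or more (Anxa3 at 1.72, Anxa2 at 1.53, Anxa1 at 1.36 and S100a6 at 1.05). The 1 gene lower by 2-fold or more was S100g, the calbindin of the distal tubule, at -1.13, and 6 of the 19 lay below 0. After ribosomal centring, 2 of the 19 were higher and 3 lower.

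Acute phase genes encode plasma proteins that the liver makes in inflammation, and several are also made by injured epithelium. Of 20 measured members, 16 of them bright, 10 were higher by 2-fold or more and 1 lower, and the median was 1.41, which stays positive at 0.98 after ribosomal centring. Fgb, the fibrinogen beta chain, read 8.23, 12.66 and 7.97. Fga, the alpha chain, read 7.14, 10.08 and 7.54 on the same arrays, and Fgg, the gamma chain, 9.02, 13.12 and 8.76. The 3 fibrinogen genes are neighbours in the genome, and all 3 were high on the NTS array alone. Albumin, a liver protein, went the other way: Alb read 9.86 and 7.57. Orm1 and Orm2, which encode closely related orosomucoids, were split, with Orm1 at 8.96 and 7.26 and Orm2 at 5.86 and 8.83, and their close sequences make the separate values uncertain. Serpina10, an inhibitor of clotting factor X, belonged to no list and read 6.71 and 9.47.

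Many acute phase genes are known targets of the interleukin-6 family of cytokines, which signal through gp130 (Il6st) and the transcription factor STAT3. Of 18 measured genes of this pathway, 14 of them bright, 3 were higher by 2-fold or more and 0 lower. The receptor-side genes differed little: Osmr, the oncostatin M receptor, read 9.04 and 9.50, and Il6st 11.21 and 10.81. Stat3 itself read 10.19, 11.49 and 10.26. The other 2 past 2-fold were Cebpd, a transcription factor of acute phase genes, at 7.78 and 9.42, and Clcf1, a ligand of the family, at 7.78 and 9.32. Socs3, the feedback inhibitor, read 7.20 and 7.99, though its brightest probe set alone differed by 1.39, and Lif was dim on both arrays at 5.73 and 5.82.

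Mitosis was the list with the most genes past 2-fold on the higher side. Of 42 measured, 29 were higher by 2-fold or more and 0 lower, and the median was 1.33. Centred on ribosomal protein genes, 18 of the 42 were higher, 0 lower and the median 0.91. Spc25 alone was equal on both arrays. Only 27 of the 42 were bright enough for the filter. Ccnb2, a mitotic cyclin, read 6.90, 9.69 and 7.17. Kif23, a motor of cytokinesis, read 6.87, 9.44 and 7.65, and Birc5 (survivin), of the chromosomal passenger complex, 5.87, 8.11 and 6.04. Foxm1, the transcription factor of the G2 and M phases, read 6.19, 8.04 and 6.46. The NTS array stood above both others in each of these genes, and the control and NTS/PGE2 arrays lay within 0.78 of each other.

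Replication and G1 genes serve earlier phases of the cycle. Of 33 DNA replication genes, 26 of them bright, 3 were higher by 2-fold or more and 0 lower, and the median was 0.53. They were Chaf1b, of the chromatin assembly factor, at 2.18, Rrm2, the ribonucleotide reductase subunit, at 1.81, and Pole, a polymerase subunit that read 6.12 and 7.20, at 1.09. The helicase genes Mcm6 at 0.92, Mcm7 at 0.83 and Mcm2 at 0.73 lay below 2-fold. Of 20 G1 cyclins, kinases and inhibitors, 1 was higher (E2f8, dim on both arrays at 5.81 and 6.98) and 1 lower, and the median was 0.06. The lower gene was Ccnd2, which read 9.31 and 8.06, and Ccnd1, the cyclin that drives entry into the cycle, read 11.37 and 10.65. Cdk6 differed by 0.99. The larger median in mitosis than in replication was not tested.

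Promoters of mitotic genes are known for a pair of elements: CCAAT boxes, bound by NF-Y, and the CHR (TTTGAA), bound by the MuvB complex that holds the genes silent in resting cells. RefSeq promoters on GRCm38.p6, 250 bases before to 50 after a gene's start, were found for 35 of the 42 mitotic genes (39 promoters). Searched on both strands, CCAAT was present in 76.9% of them and TTTGAA in 71.8%, against 37.4% and 17.9% of all 32851 promoters of the same length. Both together stood in 64.1% of the mitotic promoters and 6.95% of all. In the 36 promoters of 29 replication genes, CCAAT stood in 61.1%, TTTGAA in 11.1% and both in 8.33%. A match of letters is a description and not a measured binding site. The mitotic genes with the largest differences and a promoter in the table are printed, from 200 bases before the start to 30 after it on the gene's strand, with both motifs (or ATTGG and TTCAAA, their reverse complements) in capitals.
Ccnb2, chr9:70421525-70421754, minus strand: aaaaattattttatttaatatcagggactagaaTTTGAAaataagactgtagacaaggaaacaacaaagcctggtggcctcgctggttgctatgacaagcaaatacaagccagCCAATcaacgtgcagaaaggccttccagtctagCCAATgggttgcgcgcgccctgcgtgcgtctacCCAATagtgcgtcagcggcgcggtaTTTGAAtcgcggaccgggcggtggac
Cdk1, chr10:69352883-69353112, minus strand: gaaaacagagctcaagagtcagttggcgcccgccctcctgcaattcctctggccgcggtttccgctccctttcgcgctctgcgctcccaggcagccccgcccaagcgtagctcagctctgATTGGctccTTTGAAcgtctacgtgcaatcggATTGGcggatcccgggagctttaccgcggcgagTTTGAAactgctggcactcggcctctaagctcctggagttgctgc
Kif23, chr9:61946770-61946999, minus strand: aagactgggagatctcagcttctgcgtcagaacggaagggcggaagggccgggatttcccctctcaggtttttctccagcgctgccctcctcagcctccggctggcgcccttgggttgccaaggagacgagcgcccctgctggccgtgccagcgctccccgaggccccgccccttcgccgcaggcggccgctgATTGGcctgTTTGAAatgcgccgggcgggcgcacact
Anln, chr9:22389177-22389406, minus strand: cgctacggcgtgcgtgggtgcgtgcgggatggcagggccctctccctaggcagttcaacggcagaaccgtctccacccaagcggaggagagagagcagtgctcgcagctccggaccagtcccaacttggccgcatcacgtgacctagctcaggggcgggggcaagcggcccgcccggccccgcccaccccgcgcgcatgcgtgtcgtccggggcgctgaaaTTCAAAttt
Ccnb2 has 3 CCAAT boxes, starting 87, 54 and 21 bases before the start, and a TTTGAA 5 bases into the transcript. In Cdk1 the last TTTGAA starts 15 bases before the start, and in Kif23 it starts at base 3 of the transcript. Anln, the cytokinesis scaffold anillin, has no CCAAT in this stretch and differed by 2.44.

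The STAT element TTCNNNGAA, which reads the same on both strands, stood in 4 of 16 acute phase promoters (25%, against 8.3% of all). The promoter of Fgb, the acute phase gene with the largest difference, held 1, in capitals together with the reverse complement (ATTAAC) of GTTAAT, the core of the HNF1 site of liver and kidney genes.
Fgb, chr3:83049834-83050063, minus strand: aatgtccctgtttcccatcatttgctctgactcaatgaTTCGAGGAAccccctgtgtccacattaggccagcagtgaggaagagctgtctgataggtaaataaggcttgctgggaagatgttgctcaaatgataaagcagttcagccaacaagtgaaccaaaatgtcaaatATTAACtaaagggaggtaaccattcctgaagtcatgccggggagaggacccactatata
GTTAAT stood in 3 of 16 promoters of early proximal tubule genes (18.8%) and 2 of 15 of late ones (13.3%), against 7.1% of all.

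Stress responses were uneven. Of 17 p53 targets, 4 were higher by 2-fold or more and 0 lower, and the median was 0.64. Centred on ribosomal protein genes, 1 was higher, 1 lower and the median 0.21. The 4 were Sesn2 and Sesn1, which restrain mTOR, at 1.58 and 1.03, Trp53inp1 at 1.05 and Zmat3 at 1.02. In the integrated stress response, 2 of 22 genes were higher (Sesn2 again, and Nupr1 at 1.10) and 1 lower (Shmt2, of mitochondrial folate metabolism, at -1.18). None of 18 endoplasmic reticulum chaperone genes differed 2-fold, with a range of -0.40 to 0.50. The antioxidant genes of NRF2 had 1 of 26 members higher and 2 lower, and their median was 0.06. Hmox1, a heme-degrading enzyme, stood at 8.62, 10.73 and 9.67. Nfe2l2, which encodes NRF2 itself, was lower, at 11.51, 9.52 and 11.63. Osgin1, another target, read 9.38, 8.02 and 9.80, and the subunits of the rate-limiting enzyme of glutathione synthesis were split, with Gclc at 0.73 and Gclm at -0.93. The antioxidant element TGACNNNGC, on either strand, stood in 34.5% of 29 promoters of this group and 12.4% of all.

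**Figure D2:**
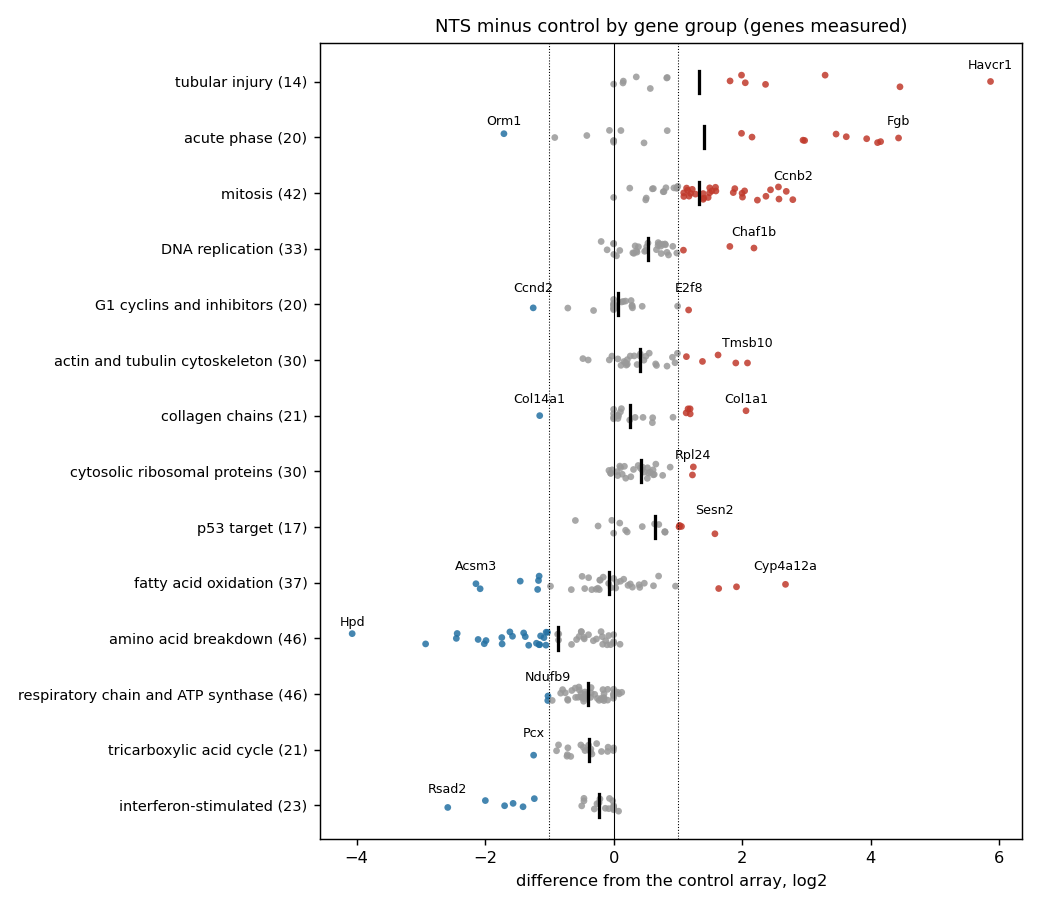
Log2 difference of NTS from control (horizontal) for each measured gene of 14 groups, with the number of genes in brackets, the median as a black bar, 2-fold as dotted lines and genes past it in red or blue. Mitosis has 29 of 42 genes to the right of the upper line, and amino acid breakdown 22 of 46 to the left of the lower line.

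The proximal tubule is split by function into an early part, S1, and a straight part, S3. Of 16 genes listed for S1, all bright, 10 were lower by 2-fold or more and 0 higher, and the median was -1.32. Slc5a2, the glucose transporter SGLT2, read 11.12, 9.36 and 10.82. Slc34a1, the main phosphate transporter, read 13.64, 12.21 and 13.55, and Lrp2 (megalin), the receptor for filtered protein, 12.93, 11.53 and 13.34. The NTS array was the low one in each. Slc4a4, the bicarbonate exit carrier of the same segment, read 12.95 on both the control and NTS arrays, and Slc6a19, the neutral amino acid carrier, 11.85 and 11.35.

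Of 18 genes listed for S3, 16 of them bright, 8 were lower by 2-fold or more and 0 higher, and the median was -0.89. The count was 15 when centred on ribosomal protein genes. Slc22a7, the anion transporter OAT2, read 10.92, 7.61 and 11.57. Slc7a12, an amino acid carrier, read 12.49, 9.36 and 12.80, and Aadat, an aminotransferase of lysine and tryptophan breakdown, 13.25, 10.69 and 13.37. The lower genes of both segments thus included uptake carriers, a protein receptor and enzymes. Across 30 organic anion and cation transporters, 10 were lower by 2-fold or more and 0 higher, with Slc22a22, a prostaglandin-specific transporter, at -3.60 and Slc22a19 at -3.15.

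Enzymes that break down amino acids were the metabolic group with the most lower genes: 22 of 46 were lower by 2-fold or more and 0 higher, and the median was -0.86. They covered several pathways. Hpd, of tyrosine breakdown, read 12.00, 7.94 and 11.70. In choline and betaine metabolism, Bhmt read 9.13, 6.68 and 8.19 as the mean of 3 probe sets, a difference of -2.45, while its 2 bright probe sets differed by -3.71 and -3.43. Bhmt2 differed by -2.11 and Dmgdh by -1.74; these 3 genes are neighbours. In the kynurenine pathway of tryptophan, Haao differed by -1.99, Kynu by -1.61 and Kmo by -1.57. Both enzymes of creatine synthesis were lower, Gatm at -2.93 and Gamt at -1.74. Hao2, a peroxisomal hydroxyacid oxidase, read 11.92, 9.49 and 12.33.

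Several of the lower genes sit near each other. Walking along the genome over the 11778 genes, 14 runs of at least 3 neighbours were all at least 2-fold different in 1 direction, and 11 of the 14 were lower. Of the 956 genes past 2-fold in either direction, 638 were lower. Genes outside the 11778 were skipped, so they can lie between the members of a run. The lower runs included the carboxylesterases Ces1d at -2.34, Ces1e at -2.44 and Ces1f at -2.27, the acyl-CoA synthetases Acsm5, Acsm2 and Acsm1, the organic anion carriers Slc22a29, Slc22a30 and Slc22a8, and the glycosyltransferases Ugt3a1 and Ugt3a2 with Agxt2. The 3 higher runs were the fibrinogen chains, S100a6 with Sprr2f and Sprr2g, and Col4a1 with Col4a2 and Rab20. Close family members can share probe signal, so they are not independent measurements.

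Fatty acid oxidation genes differed in both directions. Of 37 genes, all bright, 3 were higher by 2-fold or more and 6 lower, and the median was -0.08. Pdk4, the kinase that turns off pyruvate oxidation, read 11.72, 13.63 and 11.92, and the thioesterase Acot1 read 9.20, 10.84 and 9.59. The third higher gene was Cyp4a12a. Outside this group, Angptl4, an inhibitor of lipoprotein lipase, read 9.96, 11.57 and 10.73. Pdk4, Acot1 and Angptl4 are known targets of the fatty acid receptor PPAR-alpha, and so is Plin2, the lipid droplet coat, named after its values were seen, at 10.99, 13.18 and 11.04. Other targets of the receptor did not share the difference: Cyp4a10 read 12.89 and 12.68 and Cyp4a14 13.32 and 13.28 on the control and NTS arrays. The lower members were Acsm3 at -2.14, Bdh1, of ketone metabolism, at -2.08, Acsm1 at -1.45, Acsm2 at -1.18, Acot3 at -1.17 and Acadm, the medium-chain dehydrogenase, at -1.16. Acsm3 read 7.82, 5.68 and 5.77, so both serum arrays were low.

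Genes of mitochondrial respiration were lower by small steps. Of 46 genes for the respiratory chain and ATP synthase, 40 lay below 0 and 4 above, but only 2 reached 2-fold (Ndufb9 at -1.03 and Ndufs7 at -1.02, both of complex I), and the median was -0.39. After ribosomal centring, 11 were lower by 2-fold or more. The citric acid cycle had a median of -0.39 over 21 genes, 20 of them below 0, and the 1 past 2-fold was Pcx, pyruvate carboxylase, at -1.25. Of 10 gluconeogenesis genes, 1 was higher by 2-fold or more and 4 lower. Fbp1 read 13.41 and 11.91, and G6pc 13.27 and 12.06, while Pck1 read 13.45 on both. The median of 18 glycolytic genes was 0.01, with 1 past 2-fold: Slc16a1, a lactate and pyruvate carrier, at 2.03. Peroxisomal genes had a median of -0.49 over 28, with 7 lower by 2-fold or more and 0 higher, and Pex11a, which drives peroxisome division, at 0.97.

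Cytochrome P450 and conjugating enzymes process drugs, lipids and hormones. Of 23 cytochrome P450 genes, 18 of them bright, 8 were lower by 2-fold or more and 1 higher. Cyp2j11 read 12.19, 9.26 and 12.08, and Cyp2c23, an arachidonic acid epoxygenase, 11.05, 8.98 and 10.47. Cyp51, of cholesterol synthesis, read 10.41, 7.97 and 10.82. The higher gene was Cyp27b1. Outside this group, among the 20 largest positive differences, were the fatty acid hydroxylases Cyp4a12a (8.04, 10.71 and 7.17) and Cyp4a12b (8.41, 11.52 and 7.82), which are near-identical and known as male-biased genes of mouse kidney. Of 30 conjugating enzymes 5 were lower and 0 higher, led by Inmt, an N-methyltransferase, at -2.84. Cholesterol synthesis genes had a median of -0.17 over 20, with Cyp51 at -2.43 and Idi1 at -1.29 past 2-fold.

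The later segments reabsorb salt and water. In the thick ascending limb, 11 of 22 genes, 20 of them bright, were lower by 2-fold or more and 0 higher, and the median was -0.90. Slc12a1, the sodium-potassium-chloride carrier blocked by loop diuretics, read 12.48, 11.14 and 12.78. Egf, made in this segment, read 12.63, 9.53 and 12.94, and Tmem207 10.01, 6.29 and 10.45. Umod, the segment's most specific marker, differed by -0.06, at 13.70 and 13.64. Of 12 measured ligands and receptors of its family, Egf was the 1 past 2-fold, and Areg, another ligand, was not used here. Its receptor Egfr read 9.92 and 10.03, and Erbb3 10.28 and 11.20.

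In the distal convoluted and connecting tubule, 6 of 18 genes were lower by 2-fold or more and 0 higher, and the median was -0.59. Pvalb, a calcium buffer of the early part, read 8.42 and 5.81, while the thiazide-sensitive carrier Slc12a3 read 12.79 and 11.99. Principal cells of the collecting duct had 5 of 18 genes lower and 0 higher, and the median was -0.55. In the vasopressin pathway the receptor Avpr2 read 8.55 and 6.96, and the water channel it controls, Aqp2, 10.23 and 8.49, whereas the sodium channel subunit Scnn1g read 10.10 and 9.72. Hsd11b2, which shields the mineralocorticoid receptor from cortisol, read 11.90 and 10.25. Intercalated cells, which secrete acid or base, had 8 of 20 lower and 0 higher, and the median was -0.86. The ammonia channels Rhcg and Rhbg differed by -1.83 and -1.69, and the proton pump subunit Atp6v1b1 by -0.91.

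Vitamin D and phosphate genes went both ways, with 2 of 14 higher by 2-fold or more and 6 lower. Cyp27b1, which activates vitamin D, differed by 2.98, reaching 11.98 with NTS against 7.20 with NTS/PGE2. Kl (klotho), the co-receptor for FGF23, read 11.60, 10.10 and 11.76. The phosphate carrier Slc34a3 read 9.97, 7.16 and 9.53, whereas Slc34a2, a carrier of other epithelia, read 8.46, 10.38 and 8.38. The 2 higher genes were thus Cyp27b1 and Slc34a2, and the apical carriers of the proximal tubule were lower.

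Of 27 transcription factors of nephron identity or of injury, repair and division, all bright, 4 were higher by 2-fold or more and 1 lower. Their median was 0.03. Centred on ribosomal protein genes, 2 were higher and 3 lower. Hnf4a, of the proximal tubule, read 12.12 and 11.55, and Pax8, of all tubule cells, differed by 0.59. The higher ones were Foxm1, Klf6 (9.17 and 10.87), Sox9, a factor of repairing tubule (7.27 and 8.57), and Myc (8.39 and 9.39). The lower one was Tfap2b, of the distal tubule, at 9.73, 8.59 and 10.00.

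**Figure D3:**
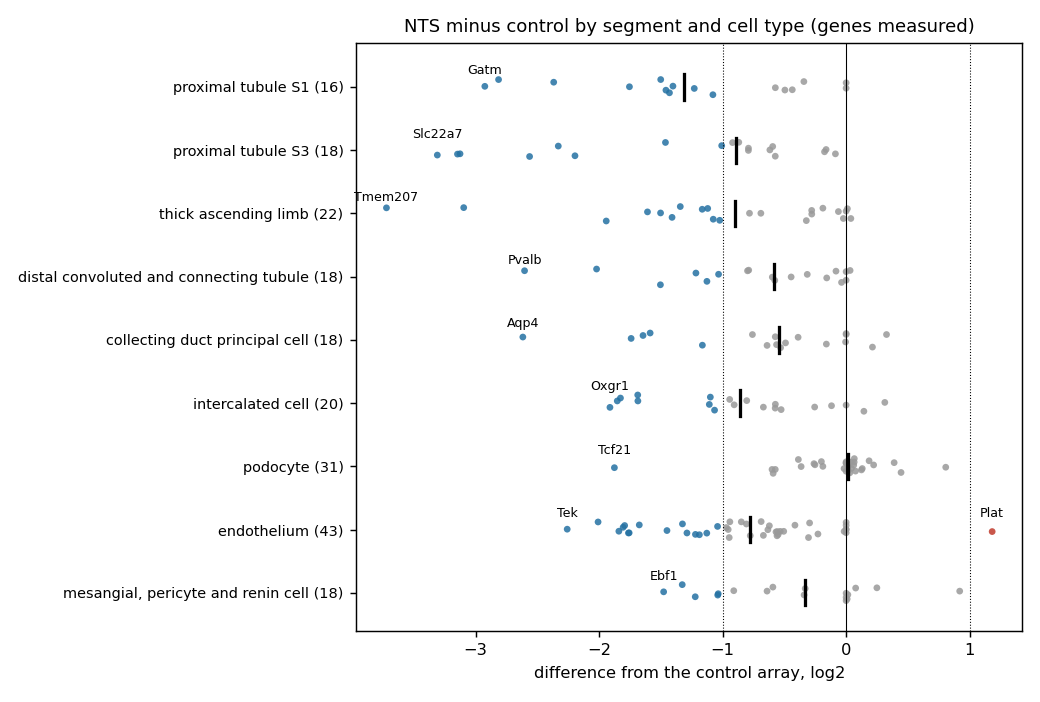
Log2 difference of NTS from control (horizontal) for each measured gene of 9 segment and cell type groups, with the number of genes in brackets, the median as a black bar and 2-fold as dotted lines. Tubule and endothelium groups have medians from -1.32 to -0.55, and podocyte genes centre on 0.01 with Tcf21 alone below the lower line.

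Podocytes form the filter of the glomerulus, the structure the serum targets. Of 31 measured, 30 of them bright, 1 was lower by 2-fold or more and 0 higher, and the median was 0.01 in a range of -1.88 to 0.81. The lower gene was Tcf21, also expressed by interstitial cells, at 9.02, 7.15 and 8.91. Nes, an intermediate filament of podocytes, differed by 0.81, and the basement membrane collagen Col4a3 read 9.11 and 9.18. Of 18 mesangial, pericyte and renin cell genes, 5 were lower by 2-fold or more and 0 higher, with 10 below 0, 5 above and 3 equal. The median was -0.34, and -0.17 without the 2 members that the smooth muscle list also holds. One of them, Acta2, the actin of smooth muscle, read 11.45, 10.41 and 10.31, and so was low on both serum arrays. Pdgfrb, the receptor that marks these cells, read 10.04, 8.82 and 9.81, and Pdgfra 9.77, 8.44 and 9.51.

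Of 43 endothelium genes, 41 of them bright, 15 were lower by 2-fold or more and 1 higher, with 37 below 0. Their median was -0.78. The counts were 26 lower and 0 higher when centred on ribosomal protein genes. Tek, the angiopoietin receptor, read 10.00, 7.74 and 9.84. Kdr, the main VEGF receptor, read 9.48, 7.81 and 9.20, and Ehd3, a marker of glomerular endothelium, 9.47, 8.15 and 9.27. The pan-endothelial genes Cdh5 and Pecam1 lay short of 2-fold, at -0.95 and -0.78. The higher gene was Plat, tissue plasminogen activator, at 1.18. Among the growth factors, both ligands of Tek were lower, Angpt1 at -1.51 and Angpt2 at -1.52, Vegfa read 10.64 and 10.04, and Edn1 (endothelin) was higher at 1.68. Red cell genes were low on the same array: of 4 measured, 2 of them bright, 2 were lower by 2-fold or more, the median was -0.93, and the summed linear values were 1872, 479 and 1265. The 2 were Alas2, of heme synthesis, at 10.02, 7.27 and 9.07, and Slc4a1, which intercalated cells also express, at 9.49, 7.64 and 9.27. The part of blood in the vessel values was not tested.

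Fat is vascular tissue, and its markers were low on the same array. Of 30 measured fat genes, some of which kidney also expresses, 19 were lower by 2-fold or more and 0 higher. The sum of their linear values was 70731, 30156 and 38002 in the same order of arrays. The defining markers Ucp1 (5.72) and Adipoq (4.70) lay below the NTS array's 25th percentile of 5.78. On the NTS/PGE2 array, where 15 of the 30 fat genes were at least 2-fold below control, 0 of 43 endothelium genes were, and their median was -0.06. The part of fat in the endothelium values of the NTS array was not tested. Of the 20 genes with the largest negative differences, Ucp1, Car3, Retn, Adipoq, Thrsp and Cidea were fat genes, and Prkar2b (10.21, 6.46 and 7.15) and Psca of the urothelium (10.09, 6.85 and 6.29) were also low on both serum arrays. Urothelium genes had a median of -0.16 over 19, with 7 lower by 2-fold or more and 2 higher, and smooth muscle genes -0.33 over 11, with 3 lower. Unlike the fat sum, the summed linear values of the urothelium genes were low on NTS/PGE2 alone, at 10209, 10842 and 3561. On that array 9 of the 19 were at least 2-fold below control and 0 above, and the median was -0.995. The part of urothelium in other values was not tested.

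**Figure D4:**
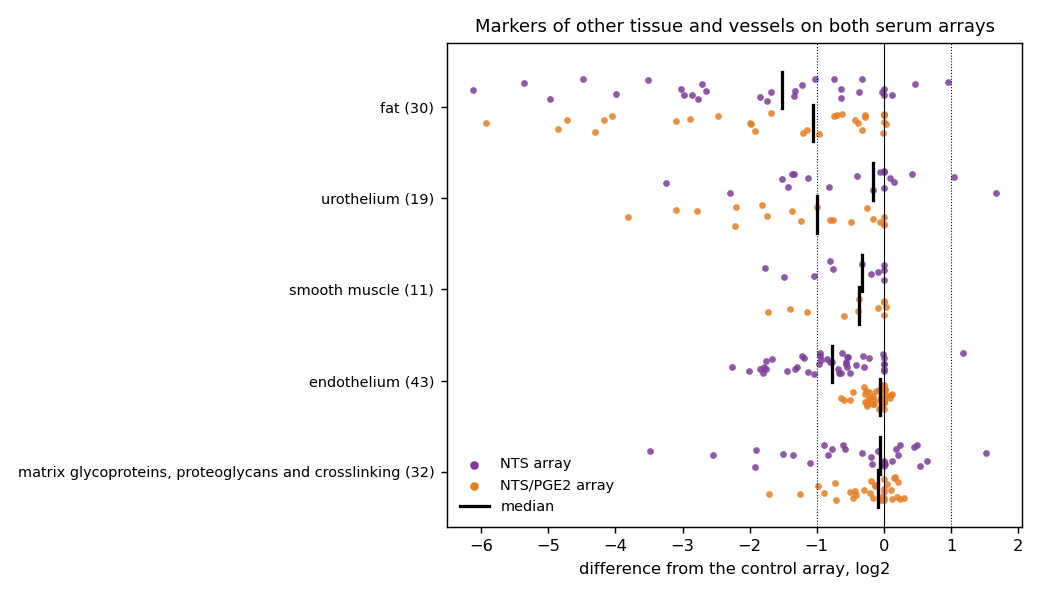
Log2 difference from the control array (horizontal) of each measured gene in 5 groups, for the NTS array (purple) and the NTS/PGE2 array (orange), with medians as black bars. Fat genes reach below -4 on both serum arrays, whereas endothelium genes have medians of -0.78 (NTS) and -0.06 (NTS/PGE2).

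Matrix genes parted by kind. Of 21 collagen chains, 20 of them bright, 5 were higher by 2-fold or more and 1 lower, and the median was 0.25, which becomes -0.18 with 1 chain higher and 1 lower when centred on ribosomal protein genes. The fibrillar chains Col1a1 and Col3a1 read 8.19 and 7.88 on the control array and 10.24 and 9.06 on the NTS array, and Col1a2 differed by 0.92. The basement membrane chains Col4a1 and Col4a2, found in most basement membranes, differed by 1.19 and 1.13, while the glomerular chain Col4a3 differed by 0.06. Of 32 matrix glycoproteins, proteoglycans and crosslinking genes, 1 was higher (Fn1, fibronectin, at 1.53) and 7 lower, and the median was -0.06. The lower ones were mostly small proteoglycans of connective tissue: Ogn read 9.53, 6.03 and 8.54, Dcn 11.68, 9.13 and 10.79, and Lum was dim at 6.57, 4.65 and 5.84. The NTS/PGE2 values of these 3 genes lay between the other 2 arrays, whereas Postn (periostin) read 7.73, 6.39 and 6.02, lowest on the NTS/PGE2 array. The part of fat or other connective tissue in these values was not tested.

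Among proteases and inhibitors, 3 of 30 were higher by 2-fold or more and 2 lower. Mmp7 (matrilysin), an epithelial protease, read 6.10, 8.67 and 6.53. Its inhibitor Timp1 read 6.70, 9.99 and 6.27, while Timp4 read 7.52, 6.13 and 6.48. The lower protease was Mep1b, a brush border meprin subunit, at 9.38, 6.48 and 10.24. The TGF-beta pathway differed little: of 27 genes, 1 was higher (Tgfbi at 1.26) and 1 lower (Ltbp4 at -1.25), and the median was 0. Of 23 integrin and laminin chains, Lama5 was higher at 1.02, and Itgb8 and Lama2 lower at -1.30 and -1.03.

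Immune cell groups differed in their counts. All 13 measured neutrophil genes and all 17 T and NK cell genes were dim on both arrays, and none differed 2-fold; the values of Ly6g were 5.85 and 5.78. Of 25 macrophage and monocyte genes, 16 of them bright, 4 were higher by 2-fold or more and 4 lower, 16% each way. The lower ones included the growth factor receptor Csf1r, at 9.39, 8.30 and 9.55, and Lyz2, at 9.60, 8.41 and 8.57. Itgam, an integrin of recruited monocytes, read 6.59, 7.69 and 6.52, and Cd68, a lysosomal protein, 8.12, 10.34 and 7.58. Il34, a ligand of Csf1r made by tubule cells and named after its values were seen, read 7.80, 9.93 and 8.06, while the other ligand, Csf1, read 7.51 on all 3 arrays. Antigen presentation genes did not reach 2-fold in 8 class II and 10 class I members, with H2-DMa at 0.91 and Tapbp at 0.75.

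Of 20 complement genes, 17 of them bright, 1 was higher (Cfi, the C3b-cleaving protease, 7.33 and 9.33) and 2 lower (the inhibitor Serping1 at -1.74 and the receptor C3ar1 at -1.33). Of 9 Fc receptor genes, which bind the antibody of immune complexes, 4 were bright. Pigr, the epithelial transporter of secretory antibody, was the only one past 2-fold, at 1.01, and Fcer1g, the shared signalling chain, differed by -0.96. Of 36 chemokine and receptor genes, 18 of them bright, 0 were higher and 3 lower, led by Cxcl12 at -1.42. Of 23 interferon-stimulated genes, 6 were lower by 2-fold or more and 0 higher, with 17 below 0, and the median was -0.23. Rsad2 (viperin) read 9.63, 7.05 and 8.70, Oasl2 8.95, 7.25 and 8.53, and Usp18 8.43, 6.87 and 7.80. The control array was the highest in these 3.

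Genes of the TNF family were mostly near 0 or dim. Of 19, 2 were higher by 2-fold or more and 1 lower: Tnfrsf12a, the TWEAK receptor, read 7.99 and 10.35, Tnfrsf23 6.57 and 7.91, and the death ligand Tnfsf10 (TRAIL) 9.17 and 7.42. Clock genes were split, with 2 of 16 higher by 2-fold or more and 2 lower. Arntl (Bmal1), of the activating arm, read 7.26, 8.93 and 7.52, and Nfil3, a repressor, 7.70, 9.76 and 8.49. Dbp, an output gene of the opposite phase, read 10.29, 8.79 and 9.74, and Hlf, its relative, 10.35, 8.57 and 9.80. The hour at which the kidneys were taken is not among the labels, so its part was not tested.

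Ribosomal protein genes, which make up the ribosome with ribosomal RNA, were counted next. Of 45 listed cytosolic ribosomal protein genes, 30 were measured. Of these 30, 26 lay above 0 and 2 reached 2-fold, Rpl24 at 1.24 and Rpsa at 1.23. Besides these 2, the 14 bright probe sets of Rps12, another ribosomal protein gene, differed by 1.26 to 1.47. Factors of ribosome assembly had a median of 0.07 over 21 genes, with none past 2-fold. Proteasome subunits had a median of 0.18 over 29 genes, which becomes -0.25 when centred on ribosomal protein genes, with none past 2-fold. Among 60 small nucleolar, Cajal body and spliceosomal RNA genes, 15 were higher by 2-fold or more and 0 lower, and the median was 0.51. Snord118 (U8), which guides ribosomal RNA processing, read 8.90, 12.23 and 8.41, and Rnu3a (U3) 7.51, 9.97 and 6.83. Reference genes for expression studies had a median of 0.09 over 13 genes, in a range of -1.04 to 0.75. The 1 gene past 2-fold was Tfrc, the transferrin receptor, at 8.82, 7.78 and 7.70, while Actb read 13.61 and 13.79 and Tbp 9.38 on both.

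**Figure D5:**
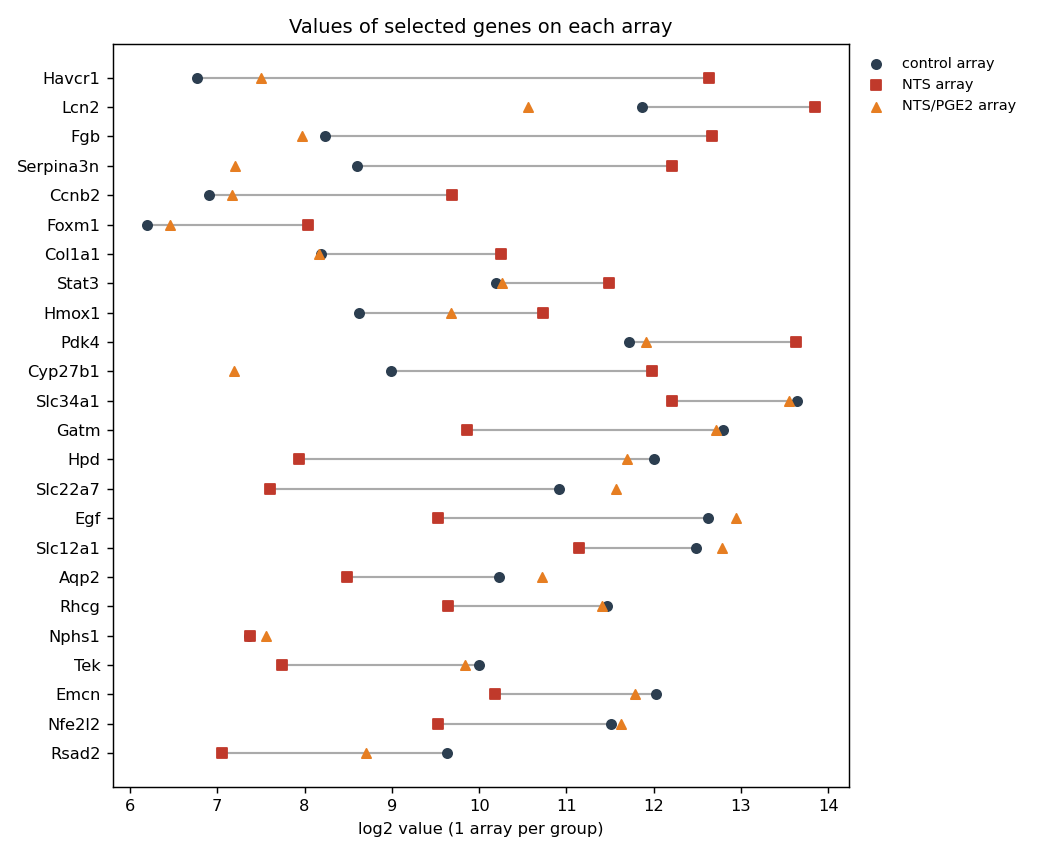
Log2 value of 24 genes (rows) on the control array (circles), NTS (squares) and NTS/PGE2 (triangles), with a grey line from control to NTS. Havcr1 spans 6.77 to 12.63, the tubule genes such as Hpd (12.00 and 7.94) run the other way, and the Nphs1 symbols lie within 0.20 of each other.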

How the data were processed

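Total RNA of kidney (250 ng) was measured on the Mouse Gene 1.0 ST array of Affymetrix, as the labels' protocols state. The log2 values deposited by the authors come from RMA in Expression Console, per the submitters' processing notes. For the software versions and genome build: not given in the sources used here. This method equalises the arrays' distributions and summarises probes by median polish. Control and NTS values were exactly equal for 19.1% of the genes passing the filter and for 37.0% of all measured genes. Group counts and medians were taken over the latter, so a group median of 0 can rest on such ties. The cause of the ties was not tested, and an equal value is not read as an equal level. Precision is limited by the number of arrays.

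The platform annotation gave 1 gene symbol to 21789 of 35556 probe sets. These were averaged per gene (19938 genes). The 66 gene lists held 1543 entries, of which 1407 were measured. The members, lists and rules were chosen with earlier results of these data known. The rule for named genes took the 20 largest differences in each direction, without predicted, receptor-cluster and small RNA genes, and up to 6 members per list; members named beyond it were chosen after their values were seen. No test was run. The calculation was checked on simulated data. Values below an array's 25th percentile (5.77 to 5.79) may be background. Promoter sequences came from RefSeq on GRCm38.p6. Python 3.11.15 with pandas 2.3.3 and numpy 2.4.6 was used.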

Additional observations from a re-analysis of the deposited data

Results flagged for a closer look

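Probe sets left out of every comparison also carried differences. Of 4709 probe sets with no gene symbol that passed the same filter, 209 had an NTS value above control by 2-fold or more and 157 below it, with differences from -5.65 to 3.66. Of 855 probe sets with several symbols, 39 were at least 2-fold higher and 62 lower, from -3.27 to 1.96. The shares higher were 4.44% and 4.56%, against 2.7% of the named genes. The shares lower were 3.33% and 7.25%, against 5.42% of the named genes. No gene can be assigned to them here.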

How the results depend on the processing

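With 1 array per group, no alternative could leave out a replicate. No paired analysis was possible because each group holds 1 array. At 1.5-fold, 898 genes had the higher value on NTS and 1406 the lower, against 318 and 638 at 2-fold. Centred on ribosomal protein genes, 142 were higher and 1447 lower. With no filter, with the filter at the 75th percentile or on both values, with the brightest probe set of each gene, with centring on genes of unequal value, and without the listed fat, urothelium, smooth muscle and liver genes, the counts ranged from 215 to 355 higher and from 461 to 672 lower. Of 258 alternative medians of gene lists, 244 lay within 0.22 of the reported one. Much of this was fixed in advance. Centring on unequal genes moved each median by only 0.002, and only 999 of 19938 genes had several probe sets. The 258 leave out ribosomal centring, which lowers every list median by 0.43. The other 14 came from leaving out members. Over members passing the filter, medians became 1.81 for tubular injury, 0.86 for keratins and vimentin, 0.48 for S100 and annexin genes, 0.34 for the interleukin-6 family, 2.55 for acute phase, 0.23 for the TNF family, -0.40 for growth factors of vessels, -0.62 for mesangial cells, -1.79 for fat, -0.97 for urothelium and -2.30 for erythrocyte genes (from -0.93). Without members shared with the other-tissue lists they became 1.81 for tubular injury, 0.90 for keratins and vimentin and 0.83 for acute phase. No listed or named gene past 2-fold turned its direction under the brightest probe set or the centring on unequal genes. That centring is too small to turn such a gene, and a gene with 1 probe set cannot change under the brightest. With the brightest probe set, 13 single-gene differences moved by more than 0.22, among them Bhmt, from -2.45 to -3.43. Array signal could not be set against a measured background.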
